A study of Mus musculus with 6 samples.

Results

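The 10 genes described here are 7 Toll-like receptor (TLR) genes, Tlr1, Tlr2, Tlr3, Tlr4, Tlr5, Tlr6 and Tlr9, the receptor homologue Cd180, the adaptor Myd88 and the chaperone Unc93b1. They were chosen as a named list, called the family below, out of 21864 protein-coding genes of the annotation. No peak value enters the rule, but the list was made with earlier results of these data known. For each gene and library, peaks were sorted by position: promoter-proximal peaks touched the 5 kb on either side of a transcription start site (TSS) of a protein-coding transcript, body peaks lay farther inside the gene, and distal peaks lay outside it, 5 to 50 kb from a TSS. All 10 genes were found in the annotation.

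The data are peak lists from Mint-ChIP, a chromatin immunoprecipitation in which nuclease-cut chromatin of small cell samples is barcoded and then pooled before the antibody is added. Germinal center (GC) B cells came from spleens of wild-type (WT) mice immunized with sheep red blood cells (SRBCs) 8 days earlier, at 50000 sorted cells per library. There were 3 libraries for H3K4me1 and 3 for H3K4me3, numbered as replicates 1 to 3 within each mark, and no mutant, untreated or input library was analysed here. The cells are labelled centrocytes (light zone cells) but are called GC B cells in the study's methods, and the labels' protocol text names an H3K27ac antibody where titles, antibody labels, design and methods name the H3K4 antibodies. Genotype is labelled only as WT, a term that the study uses elsewhere for Cγ1 cre/+ mice, and the age of the mice was not in the labels. Nothing in the labels says that the libraries of a mark came from separate animals, so the spread between them may be technical.

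TLRs recognise conserved microbial structures. Those at the cell surface bind lipoproteins, lipopolysaccharide or flagellin, whereas those in endosomes bind nucleic acids and depend on UNC93B1 to leave the endoplasmic reticulum. Most signal through MYD88 to NF-kB and interferon regulatory factors, and in B cells this route acts beside the B cell receptor. H3K4me3 typically marks promoters, and H3K4me1 typically marks enhancers and the flanks of promoters.

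The H3K4me1 lists held 11922 to 24136 peaks and the H3K4me3 lists 41936 to 46707. The former are narrow lists with a summit per peak and the latter are broad lists, so a difference between the marks cannot be told apart from a difference between calling modes. The lowest deposited −log10 q-values also differed, at 1.31 to 1.32 for H3K4me1 and 1.02 to 1.14 for H3K4me3. Markers of GC B cells carried a promoter-proximal H3K4me3 peak in every library in 10 of 10 cases, with 64.9 to 74.1 kb of covered promoter summed over the list. For myeloid cells, which use many TLRs, the count was 2 of 13 and the sum 2.35 to 5.59 kb, and Lyz2, S100a8, S100a9, Mpo, C1qa and C1qb had no promoter-proximal H3K4me3 peak in any library. For T cells the count was 3 of 8 and the sum 10.8 to 11.7 kb, most of it at Lck with a mean of 9.68 kb, while Cd3e, Cd4 and Cd8a had none. Plasma cell markers reached 5 of 5 and 18.5 to 19.03 kb, and markers of other tissues 1 of 6 and 0.812 to 3.32 kb. The part of other cell types in the values below was not tested.

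Every one of the 10 genes had a promoter-proximal H3K4me3 peak in all 3 libraries, and 5 did when each list was limited to its 10000 peaks of highest −log10 q. Over all protein-coding genes the share was 56.2%, and 65.5% had such a peak in at least 1 library. The first TSS itself, or another protein-coding TSS of the gene, lay under a peak for 10, 9 and 10 genes in replicates 1, 2 and 3, and the exception was Tlr5 in replicate 2. What separated the genes was how much of the promoter window was covered. Means ran from 0.802 kb at Tlr5 to 9.77 kb at Cd180, beside a median of 1.03 kb over all genes. Per gene, the 10 genes averaged 3.94 kb of H3K4me3 cover and all genes 1.40 kb, a ratio of 2.81 ± 0.179 (SD, n = 3 libraries). This does not describe all TLR genes. Tlr7, Tlr8, Tlr11, Tlr12 and Tlr13 are not among the 10 and had means of 1.33, 0, 0, 3.96 and 1.09 kb.

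**Figure D1:**
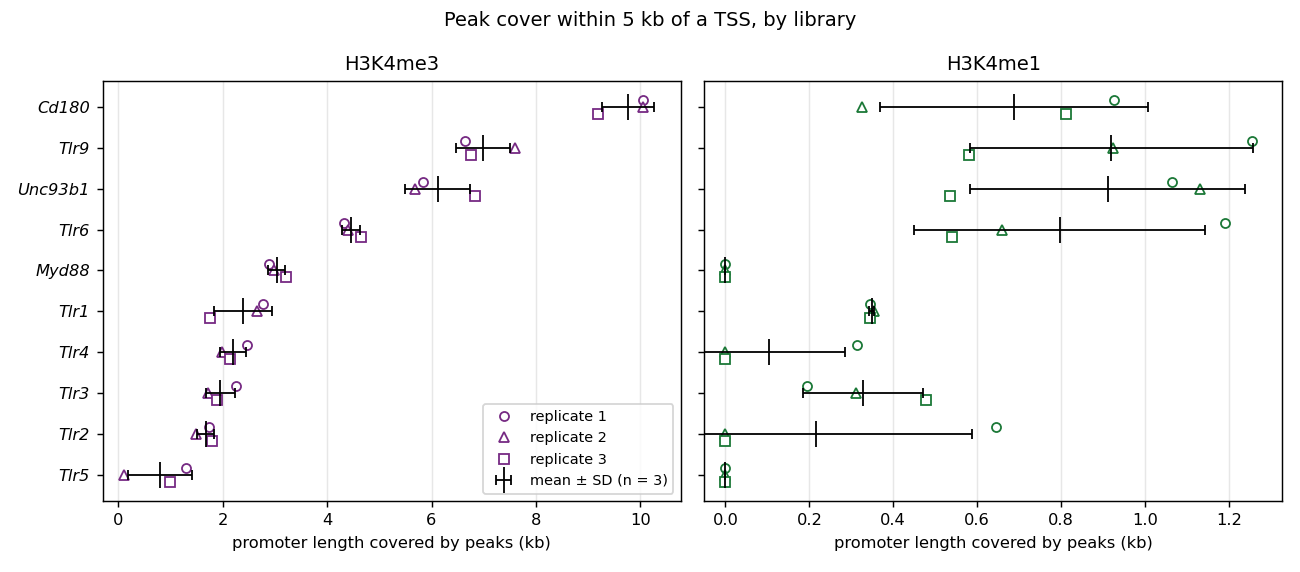
Length of the promoter window (within 5 kb of a TSS, in kb) covered by H3K4me3 peaks (left) and H3K4me1 peaks (right) for each gene. Symbols are single libraries and the black bars are mean ± SD of 3 libraries, clipped at the left edge for Tlr4 and Tlr2; the H3K4me3 values fall from 9.77 kb at Cd180 to 0.802 kb at Tlr5, and Myd88 and Tlr5 have no H3K4me1 cover.

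In descending order of mean H3K4me3 cover the genes ran Cd180, Tlr9, Unc93b1, Tlr6, Myd88, Tlr1, Tlr4, Tlr3, Tlr2 and Tlr5. The libraries of adjacent genes overlapped for Tlr9 and Unc93b1, Tlr1 and Tlr4, Tlr4 and Tlr3, and Tlr3 and Tlr2, so those neighbours did not differ beyond their spread. They did not overlap at the other steps of the order, which set apart Cd180 from Tlr9, Unc93b1 from Tlr6, Tlr6 from Myd88, Myd88 from Tlr1, and Tlr2 from Tlr5. Windows are close to 10 kb for 9 of the genes and 20002 bp for Tlr5, whose TSSs lie far apart, so a cover near 10.1 kb at Cd180 means a fully covered window. The order depends on the peak threshold, the promoter distance and the treatment of neighbouring genes. With a −log10 q of at least 5, mean cover was 2.14 kb at Unc93b1, 0.579 kb at Tlr2 and 0.0987 kb at Tlr5. With only the 10000 peaks of highest −log10 q in each library, it was 0.085 kb at Tlr9 and 1.35 kb at Unc93b1, against 8.66 kb at Cd180 and 3.99 kb at Tlr6.

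**Figure D2:**
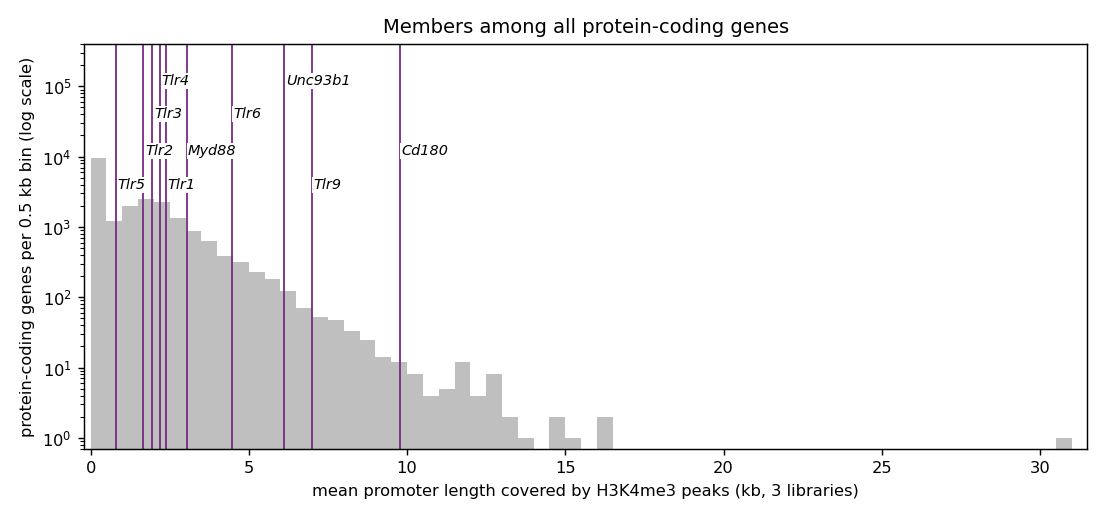
Distribution of mean H3K4me3 cover of the promoter window (kb, mean of 3 libraries, bins of 0.5 kb) over 21864 protein-coding genes, on a log count axis, with the 10 genes as vertical lines. Tlr5 lies below the median of 1.03 kb and Cd180, at 9.77 kb, lies in the far right tail.

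Promoter sequence was available from RefSeq (GRCm38.p6) for 8 of the 10 genes, Tlr4 and Unc93b1 not being matched. These windows run from 250 bases before to 50 bases after a RefSeq start, 300 bases in all. The promoters of Cd180 and Tlr9, which had the most H3K4me3 cover of the 8, are printed beside those of Myd88, which held the most CpG dinucleotides, and Tlr5, which had the least cover. All are written 5′ to 3′ on the strand of the gene. Capitals mark CpG in Cd180, Myd88 and Tlr5. In Tlr9, which holds no CpG, capitals mark GAGGAA on either strand, the core letters of PU.1 sites.
Cd180 (chr13:102693308-102693607, plus strand): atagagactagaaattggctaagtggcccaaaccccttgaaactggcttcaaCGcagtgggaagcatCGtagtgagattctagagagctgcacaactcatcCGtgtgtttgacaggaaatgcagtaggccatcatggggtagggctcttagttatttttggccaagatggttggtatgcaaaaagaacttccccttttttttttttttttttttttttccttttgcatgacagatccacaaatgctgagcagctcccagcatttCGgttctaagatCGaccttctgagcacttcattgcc
Tlr9 (chr9:106222348-106222647, plus strand): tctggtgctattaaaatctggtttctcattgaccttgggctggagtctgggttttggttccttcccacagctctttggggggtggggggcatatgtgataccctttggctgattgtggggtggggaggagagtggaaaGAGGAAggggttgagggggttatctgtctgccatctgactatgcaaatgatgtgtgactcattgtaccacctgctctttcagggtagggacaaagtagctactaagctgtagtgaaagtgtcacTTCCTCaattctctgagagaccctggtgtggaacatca
Myd88 (chr9:119339969-119340268, minus strand): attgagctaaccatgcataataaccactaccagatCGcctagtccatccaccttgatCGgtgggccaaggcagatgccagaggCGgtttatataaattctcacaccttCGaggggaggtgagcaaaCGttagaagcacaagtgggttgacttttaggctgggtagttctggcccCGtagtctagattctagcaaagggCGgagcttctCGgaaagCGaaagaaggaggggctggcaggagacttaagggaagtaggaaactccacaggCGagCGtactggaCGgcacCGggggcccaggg
Tlr5 (chr1:182954538-182954837, plus strand): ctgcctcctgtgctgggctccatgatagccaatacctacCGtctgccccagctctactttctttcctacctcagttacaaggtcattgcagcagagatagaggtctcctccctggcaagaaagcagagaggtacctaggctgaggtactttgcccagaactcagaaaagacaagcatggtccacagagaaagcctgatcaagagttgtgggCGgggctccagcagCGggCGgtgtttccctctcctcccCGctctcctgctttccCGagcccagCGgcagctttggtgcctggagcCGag
The number of CpG was 0 at Tlr9, 3 at Tlr1, 5 at Cd180, 7 at Tlr6, 8 at Tlr5, 10 at Tlr3, 11 at Tlr2 and 13 at Myd88. The median over the 8 genes was 7.5, beside 7 over the 32851 promoters of the table. Of the 3 genes with fewer than 7 CpG, Cd180 and Tlr9 had the most cover and Tlr1 had 2.39 kb. These values use a single RefSeq promoter per gene, the nearest to an annotated TSS. The other Tlr1 entry holds 9 CpG and the other Tlr6 entry 5. Across the 8 genes, Pearson's r between CpG number and mean H3K4me3 cover was −0.54 and Spearman's rho −0.52, a description over genes that share the same 3 libraries.

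**Figure D3:**
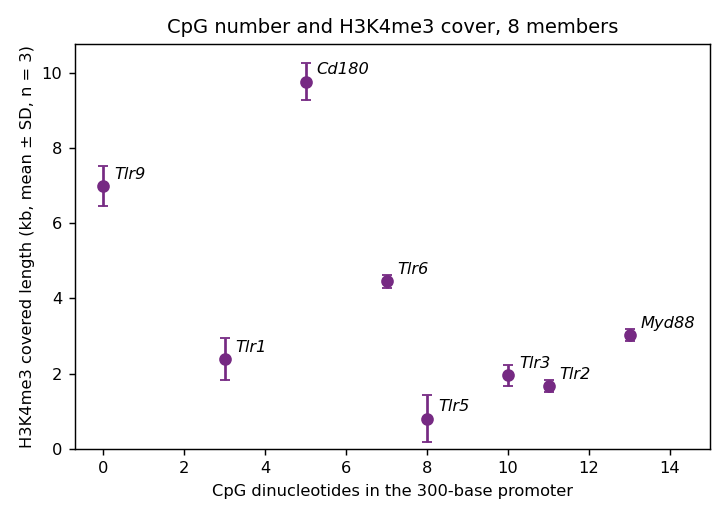
Mean H3K4me3 cover of the promoter window (kb, bars are SD, n = 3 libraries) against the number of CpG dinucleotides in the 300-base RefSeq promoter, for the 8 genes with a promoter sequence. Tlr9, with 0 CpG, and Cd180, with 5, have the most cover, at 6.99 and 9.77 kb.

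Letter matches were sought on both strands in the promoter nearest to the annotated TSS. GAGGAA occurred at Tlr1 and Tlr9, with 2 matches at Tlr9, and occurs in 28.3% of all promoters. An NF-kB consensus occurred at Tlr3 (0.411% of all promoters), an interferon-stimulated response element at Myd88 (3.44%), and the octamer ATTTGCAT at Tlr9 (1.74%). No other of the 8 genes held a match to the last 3 patterns in these windows. The other Tlr6 entry held 2 matches to the interferon response pattern. Only these exact patterns were sought, and other forms of such sites were not.

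Among the surface receptors, Tlr1, Tlr2 and Tlr6 recognise microbial lipoproteins, TLR2 as the common partner of TLR1 and TLR6. Tlr6 (chr5, 64952031 to 64960097, minus strand) had the most H3K4me3 of the 3, with 4.33, 4.399 and 4.65 kb in replicates 1, 2 and 3. Only 5.43% of all genes had a larger mean than its 4.46 ± 0.172 kb (SD, n = 3). Its TSS peak was 4.33 and 4.399 kb wide in replicates 1 and 2 and 3.25 kb in replicate 3, where a further peak of 1.41 kb lay downstream. Fold enrichment of that peak over local background, as the authors' caller gave it, was 8.78, 7.49 and 8.68.

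Tlr1 (chr5, 64924679 to 64933563, minus strand) lies next to Tlr6, with 26.5 kb between their TSSs. Its cover was 2.76, 2.65 and 1.75 kb, lower in replicate 3 than in the others, with a fold enrichment of 6.40, 5.50 and 6.02. Every library of Tlr1 lay below every library of Tlr6. Tlr2 (chr3, 83836272 to 83841767, minus strand) had 1.74, 1.48 and 1.80 kb and a fold enrichment of 5.23, 4.42 and 4.88. With a mean of 1.67 ± 0.166 kb it was exceeded by 37.5% of all genes, and it lay below Tlr6 in every library and below Tlr1 in replicates 1 and 2.

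Tlr4, the lipopolysaccharide receptor gene (chr4, 66827584 to 66930284, plus strand), is the longest of the family at 102.7 kb. Its TSS peak started 0.326 kb upstream in replicate 1 and reached 2.14 kb into the gene, and it covered 2.46, 1.99 and 2.15 kb. Fold enrichment was 10.4, 6.64 and 6.98, the highest promoter value of the family in replicate 1, behind Tlr6 and Myd88 in replicate 2 and behind Tlr6 in replicate 3. In rank it was among the top 1.46%, 14.2% and 10.2% of peaks in those lists. Fold enrichment, an average over each broad peak, and cover therefore ordered the genes differently, since Tlr4 was seventh by cover.

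Tlr5, the flagellin receptor gene (chr1, 182954788 to 182976044, plus strand), had the least H3K4me3. Cover was 1.31, 0.111 and 0.988 kb, and 53.1% of all genes had a larger mean than its 0.802 ± 0.619 kb. A TSS peak of 1.13 kb in replicate 1 and 0.803 kb in replicate 3 had a fold enrichment of only 3.36 and 4.09. Replicate 2 had none at the TSS. A separate region 4.82 to 5.59 kb downstream of the first TSS was called in all 3 libraries, with a fold enrichment of 4.72, 5.44 and 5.65, and it is through this region that Tlr5 counts as having a promoter-proximal peak in replicate 2.

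Cd180 (chr13, 102693558 to 102739629, plus strand) encodes RP105, a TLR4-like surface receptor of B cells that lacks a signalling TIR domain. It had the widest H3K4me3 of the family, at 10.1, 10.1 and 9.19 kb of a 10.1 kb window. The mean of 9.77 ± 0.498 kb was exceeded by 55 genes, or 0.252%. In replicates 1 and 2 a single peak of 13.1 and 13.0 kb, from about 5.5 kb upstream to over 7 kb downstream of the TSS, spanned the promoter whose sequence is given above. By width it ranked 32 of 46707 peaks and 7 of 41936. In replicate 3 the same interval was split into peaks of 3.36 and 8.29 kb. Fold enrichment, by contrast, was 7.23, 6.28 and 6.02, which lay inside the range of the other genes.

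Of the endosomal receptors, Tlr9 binds unmethylated CpG DNA and Tlr3 binds double-stranded RNA. Tlr9 (chr9, 106222598 to 106226883, plus strand) had 6.63, 7.59 and 6.75 kb of H3K4me3 cover, and 1.08% of all genes had a larger mean than its 6.99 ± 0.523 kb. Its TSS peak, 6.19, 6.76 and 6.75 kb wide, began 1.94 to 2.54 kb upstream and ended 4.22 to 4.25 kb downstream, close to the end of this 4.29 kb gene. Fold enrichment of that peak was 5.43, 5.38 and 5.64, while by width it ranked 597 in replicate 1, 244 in replicate 2 and 249 in replicate 3. Tlr3 (chr8, 45395665 to 45411080, minus strand) had 2.26, 1.71 and 1.89 kb, all below every Tlr9 library. Besides a TSS peak of 1.70, 0.840 and 0.867 kb, with a fold enrichment of 7.52, 6.29 and 6.11, it had a peak 3.9 to 4.8 kb upstream in all 3 libraries.

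Myd88 (chr9, 119335934 to 119341411, minus strand), the shared signalling adaptor, had 2.90, 2.99 and 3.21 kb of H3K4me3 cover with a fold enrichment of 8.52, 7.31 and 6.01. The same peak covered the TSS of Acaa1a, 1253 bp away on the other side, so the cover cannot be assigned to either gene. When peaks over the TSS of another gene were left out, Myd88 had 0 kb. Unc93b1 (chr19, 3935186 to 3949340, plus strand) had 5.84, 5.68 and 6.82 kb. Part of this came from a peak over the TSS of Aldh3b1, 5378 bp away, and 3.98 kb remained without it. Its own TSS peak was 3.87, 3.59 and 4.47 kb wide with a fold enrichment of 5.03, 4.92 and 5.01.

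**Figure D4:**
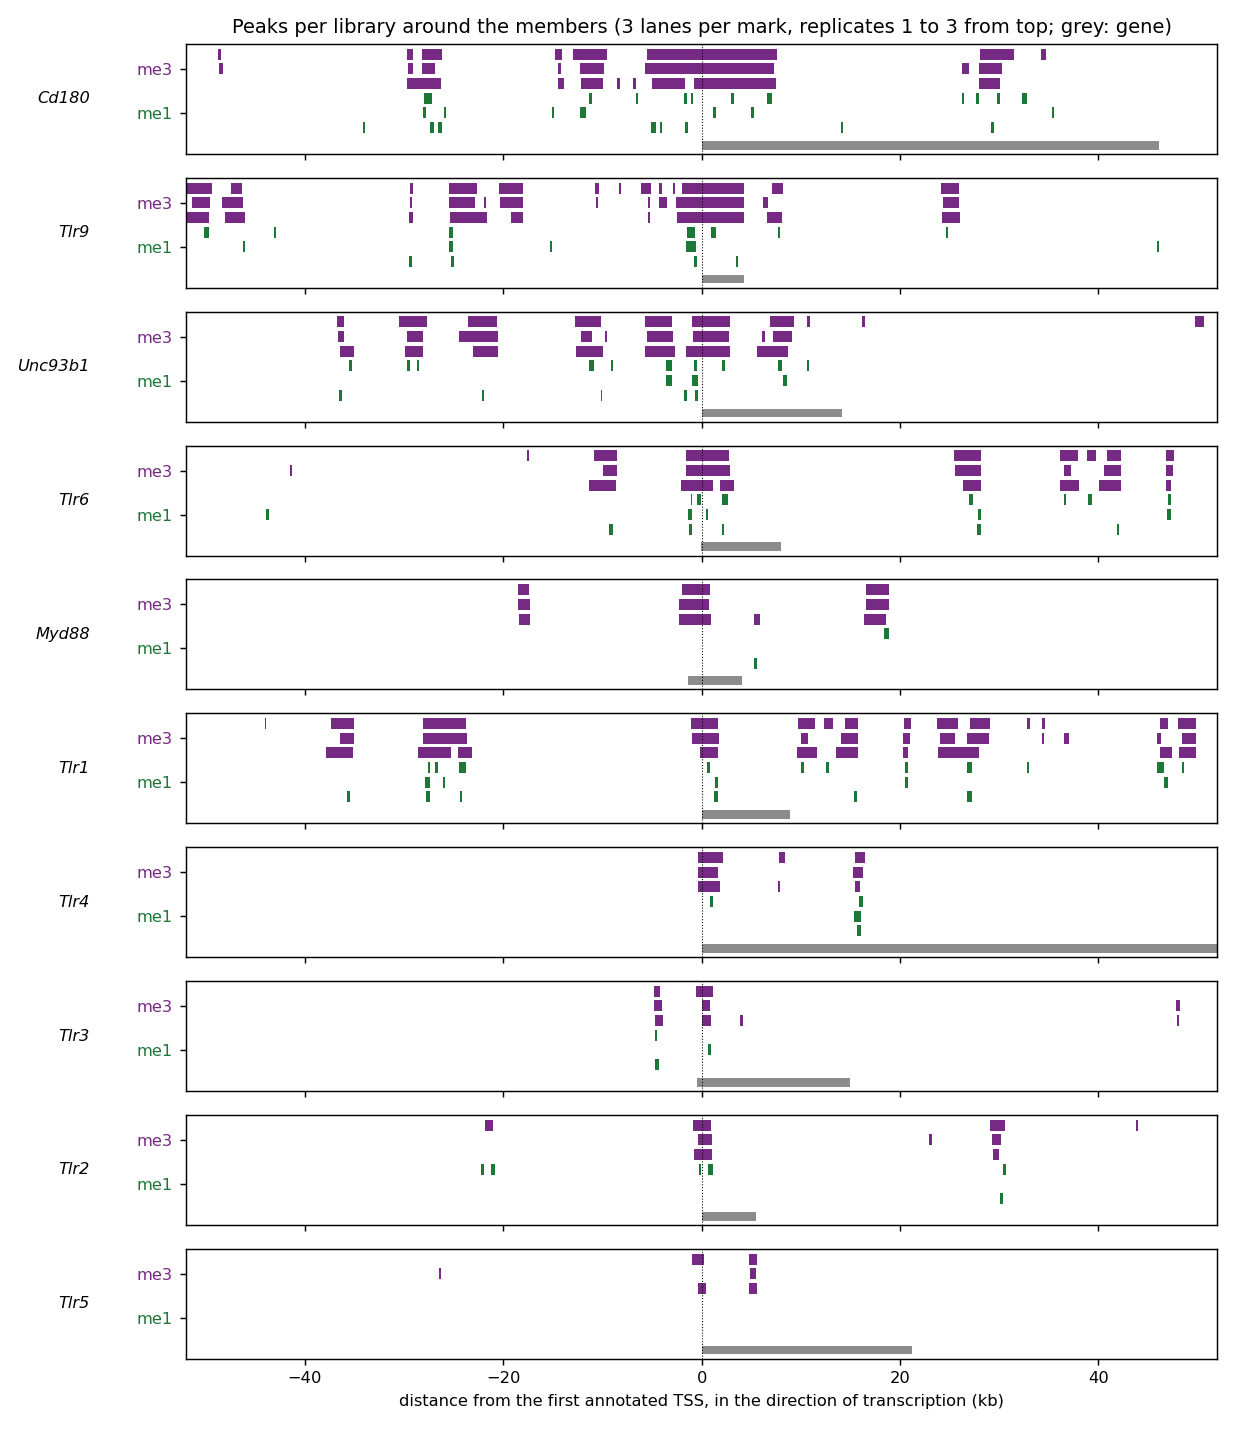
Peaks of the 6 libraries within 52 kb of each gene, drawn to scale by distance from the first annotated TSS in kb, with upstream to the left. Purple lanes are H3K4me3 and green lanes H3K4me1, replicates 1 to 3 from the top, and the grey bar is the gene; the wide domain at Cd180, the covered body of Tlr9 and the near-empty surroundings of Tlr5 stand out.

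At 6 genes all 3 H3K4me1 libraries had a peak near the promoter, Tlr1, Tlr3, Tlr6, Tlr9, Cd180 and Unc93b1, beside a share of 6.17% over all genes. In at least 1 library it was present at 8 genes, beside 35.7%, with Tlr2 and Tlr4 added by replicate 1 alone. Tlr5 and Myd88 had none in any library. With a −log10 q of at least 5 the count of 6 was 2, and among the 10000 best peaks per library it was 3.

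Cover by H3K4me1 was small in every gene. It was 1.26, 0.923 and 0.580 kb at Tlr9 in replicates 1, 2 and 3. At Unc93b1 it was 1.07, 1.13 and 0.535 kb. Tlr6 had 1.19, 0.660 and 0.539 kb. These 3 genes overlapped one another and also Cd180, which had 0.927, 0.326 and 0.811 kb. Tlr1 was nearly constant at 0.345, 0.355 and 0.345 kb, although its peak lay over the more downstream of its annotated TSSs in replicate 1 and 0.5 to 0.9 kb farther downstream in the others. At Tlr3 the cover was 0.195, 0.311 and 0.479 kb, from the upstream H3K4me3 region in replicates 1 and 3 and from the start of the gene in replicate 2. Thus a peak in every library did not mean a peak at the same place. Family genes averaged 0.431 kb and all genes 0.0845 kb, a ratio of 5.29 ± 0.603 (SD, n = 3 libraries).

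The depth behind these peaks was low. Counting each peak a single time, 98 H3K4me1 peaks lay at or near the 10 genes, 48, 23 and 27 in replicates 1, 2 and 3. The number of fragments at their summits, solved from the deposited fold enrichment and p-value, had a median of 6 and a range of 4 to 15, and 6 peaks reached 10 fragments. At this depth, the absence of an H3K4me1 peak at Tlr5 or Myd88 cannot be told apart from a failure to detect. Levels cannot be ranked either. Of the 98 peaks, 86 overlapped an H3K4me3 peak in at least 1 library and 67 in all 3. At promoters, all 16, 9 and 11 H3K4me1 peaks in replicates 1, 2 and 3 overlapped H3K4me3, where the shares over all genes were 89.3%, 89.5% and 90.8%. A TSS was covered by 1 of 16, 0 of 9 and 0 of 11 promoter-proximal H3K4me1 peaks, near the shares of 4.03%, 3.20% and 3.39% over all genes. For H3K4me3 the shares were 66.7%, 69.2% and 62.5% in the family and 55.2%, 51.5% and 52.9% over all genes.

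A stretch common to the H3K4me1 peaks of all 3 libraries existed within the promoter windows of Tlr6, Tlr9 and Unc93b1. Relative to the TSS, the Tlr6 stretch ran from −1115 to −927 bp with 7, 8 and 8 fragments at the summits, and the Tlr9 stretch from −804 to −719 bp with 5, 9 and 6. Both are printed, because they are where the H3K4me1 calls of all libraries coincided, as the plus strand of GRCm38 with GAGGAA in capitals.
Tlr6 (chr5:64960974-64961162): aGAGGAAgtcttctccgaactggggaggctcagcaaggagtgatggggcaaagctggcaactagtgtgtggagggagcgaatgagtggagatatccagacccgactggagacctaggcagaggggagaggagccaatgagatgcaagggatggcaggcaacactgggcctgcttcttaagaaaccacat
Tlr9 (chr9:106221794-106221879): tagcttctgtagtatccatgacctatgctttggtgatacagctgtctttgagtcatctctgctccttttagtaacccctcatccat
The Tlr6 stretch is 189 bp long and holds 1 GAGGAA, and the Tlr9 stretch is 86 bp long and holds none. At Unc93b1 the common stretch ran from −627 to −458 bp, with 15, 12 and 8 fragments. Those are the deepest H3K4me1 summits of the family in replicates 1 and 2, but 74.7% of the 170 bp is repeat-masked sequence. CA, AC, TG or GT steps made up 63.3% of its dinucleotides, against 22.9% to 26.5% in the other common stretches. Mapping in such sequence was not tested.

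Totals per library were then compared between the marks, on lists that differ in length. Genes of the family with a promoter-proximal peak numbered 8, 6 and 6 for H3K4me1 and 10, 10 and 10 for H3K4me3, a difference of −3.33 (6.67 ± 1.15 against 10 ± 0, SD, n = 3 per mark, two-sided exact permutation p = 0.1). Covered promoter length, summed over the genes, was 5.94, 3.71 and 3.29 kb for H3K4me1 and 40.3, 38.7 and 39.2 kb for H3K4me3. The difference was −35.1 kb (4.31 ± 1.42 against 39.4 ± 0.830 kb, exact permutation p = 0.1). In the full lists the groups did not overlap in either measure, and 0.1 is the smallest p that 3 against 3 libraries allow, so a threshold of 0.05 could not be reached. With the 10000 best peaks of each library, the difference in genes was −1 (5.67 against 6.67, exact permutation p = 0.6) and that in cover was −18.7 kb. With a −log10 q of at least 5 the difference in genes was −5.33, and with a promoter distance of 1 kb, which shortens every window, that in cover was −15.1 kb. H3K4me3 cover exceeded H3K4me1 cover 9.13 times in the family and 16.6 times over all genes.

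Away from promoters, an H3K4me3 peak 5 to 50 kb from the TSS was present in every library at 7 of the 10 genes, beside 60.3% of all genes. The 7 were Tlr1, Tlr2, Tlr6, Tlr9, Cd180, Myd88 and Unc93b1. At Tlr3 and Tlr5 such peaks were found in some libraries, which made 9 genes with at least 1 library beside 76% of all genes, and at Tlr4 in none. For H3K4me1 the count was 4 of 10, at Tlr1, Tlr6, Tlr9 and Cd180, beside 20.4%, and 7 genes had it in at least 1 library, beside 54.4%. Without H3K4me1 replicate 2, which had no distal peak at Tlr2, Myd88 or Unc93b1, the count was 7. It was 1 with a −log10 q of at least 5 and 1 with a distal limit of 20 kb. Distal peaks numbered 28, 14 and 16 for H3K4me1 and 40, 39 and 32 for H3K4me3. A peak distal to several of the genes was counted a single time. Promoter peaks of Tlr1 and Tlr6 are among the distal peaks, each as a distal peak of the other gene. The difference was −17.7 (19.3 ± 7.57 against 37 ± 4.36, exact permutation p = 0.1). Without distal peaks within 5 kb of a TSS of another gene, this difference was −11.3, with 11.7 against 23 peaks. It was −10 with a −log10 q of at least 5 and turned to +2.67, with 12.7 against 10 peaks, when each list was limited to its 10000 best peaks.

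In all, 27 distal H3K4me3 regions were present in all 3 libraries, of which 13 lay within 5 kb of a TSS of another gene and 14 did not. Per gene they numbered 8 at Tlr1, 8 at Tlr9, 5 at Tlr6, 4 at Unc93b1, 3 at Cd180, 2 at Myd88 and 1 at Tlr2. Tlr1 and Tlr6 share several of them, because each gene lies in the distal window of the other. At Myd88 both regions lay at other genes, Oxsr1 and Xylb, and at Tlr9 5 of the 8 did. At Tlr1 and Cd180, most or all did not, 6 of 8 and 3 of 3.

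The distal region with the highest fold enrichment in the family lay upstream of Cd180. It spans 102663845 to 102667349 of chr13, 26.2 to 29.7 kb before the TSS. Its fold enrichment was 12.4, 14.1 and 9.69, which placed it among the top 0.338%, 0.0620% and 1.14% of all H3K4me3 peaks of those lists. Each value was above that of the Cd180 promoter peak in the same library, but the latter is an average over a wider peak. Widths were 1.98, 1.25 and 3.48 kb at the distal region and 13.1, 13.0 and 8.29 kb at the promoter. H3K4me1 peaks also lay in it in all 3 libraries. The peak of replicate 1 overlapped those of replicates 2 and 3, but no stretch was common to all 3. No protein-coding TSS lay within 5 kb. At Tlr1, a region 23.0 to 28.3 kb downstream of the TSS (64904465 to 64909795 of chr5) was split into separate peaks in replicates 1 and 2. The farther and nearer peaks had a fold enrichment of 10.6 and 5.24 in replicate 1 and of 6.97 and 3.74 in replicate 2. In replicate 3 a single peak of 4.18 kb had 6.36. Again no TSS of another gene lay within 5 kb, and H3K4me1 was present there in 2 libraries.

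Body peaks were few. H3K4me3 lay in the gene body in every library at 3 genes, Tlr4, Cd180 and Unc93b1, beside 19.3% of all genes. No further gene had it in fewer libraries, and the share of all genes with at least 1 library was 33.2%. H3K4me1 did so at 2, Tlr4 and Cd180, beside 6.64%, and Unc93b1 in 2 libraries made 3 genes with at least 1, beside 21.3%. With a −log10 q of at least 5 the every-library counts were 1 for H3K4me3 and 0 for H3K4me1, and with the 10000 best peaks the count for H3K4me3 was 0. At Tlr4 both marks met 15.3 to 16.5 kb into the gene in all libraries, and the H3K4me1 peaks there shared 157 bp (chr4:66843489-66843645) with 9, 6 and 9 fragments. Fold enrichment of H3K4me3 at that place was 3.26, 5.72 and 5.66, lower than at the promoter in each library. At Cd180 a body region 27.9 to 31.4 kb downstream was called for H3K4me3 in 3 libraries and overlapped H3K4me1 in 2. Most of the other genes are short enough that little of them lies beyond 5 kb of a TSS.

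The wider pathway was described by 47 further genes for co-receptors, other TLRs, chaperones, adaptors, kinases, ubiquitin ligases and transcription factors. Of these, 44 had a promoter-proximal H3K4me3 peak in every library, again beside 56.2% of all genes. The count was 29 with a −log10 q of at least 5 and 19 with the 10000 best peaks per library. The 3 without, in any library, were Tlr8, an endosomal receptor for RNA, Tlr11, an endosomal receptor for profilin, and Lbp, the lipopolysaccharide-binding plasma protein. No gene of the list had such a peak in only 1 or 2 libraries. The median of mean cover was 2.74 kb in the list and 2.71 kb in the family. The largest values were 8.30 ± 0.460 kb at Irf8, a B cell and myeloid transcription factor, 6.95 ± 0.926 kb at Slc15a4, an endolysosomal transporter that TLR7 and TLR9 signalling requires, and 6.87 ± 0.0344 kb at Tnfaip3, which encodes the NF-kB inhibitor A20. Cd180 exceeded all of them and Tlr9 lay among them.

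H3K4me1 was present at promoters of the pathway list in every library for 6 of 47 genes, beside 6.17% of all genes, and in at least 1 library for 31, beside 35.7%. The 6 were Tab2, an adaptor of the TAK1 kinase, Nfkb1, an NF-kB subunit, Nfkbiz, a nuclear regulator of NF-kB, Tnfaip3, Pik3ap1, an adaptor to phosphoinositide 3-kinase, and Lyn, a Src-family kinase. The count of 6 was 13 without H3K4me1 replicate 2, 0 with a −log10 q of at least 5, 3 with the 10000 best peaks per library and 1 with a promoter distance of 1 kb. Mean cover was largest at Tnfaip3, with 2.32, 0.998 and 0.670 kb, and next at Lyn, with 0.975, 0.848 and 1.45 kb, in ranges that overlapped. The range at Lyn overlapped those of Tlr9, Unc93b1 and Tlr6.

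**Figure D5:**
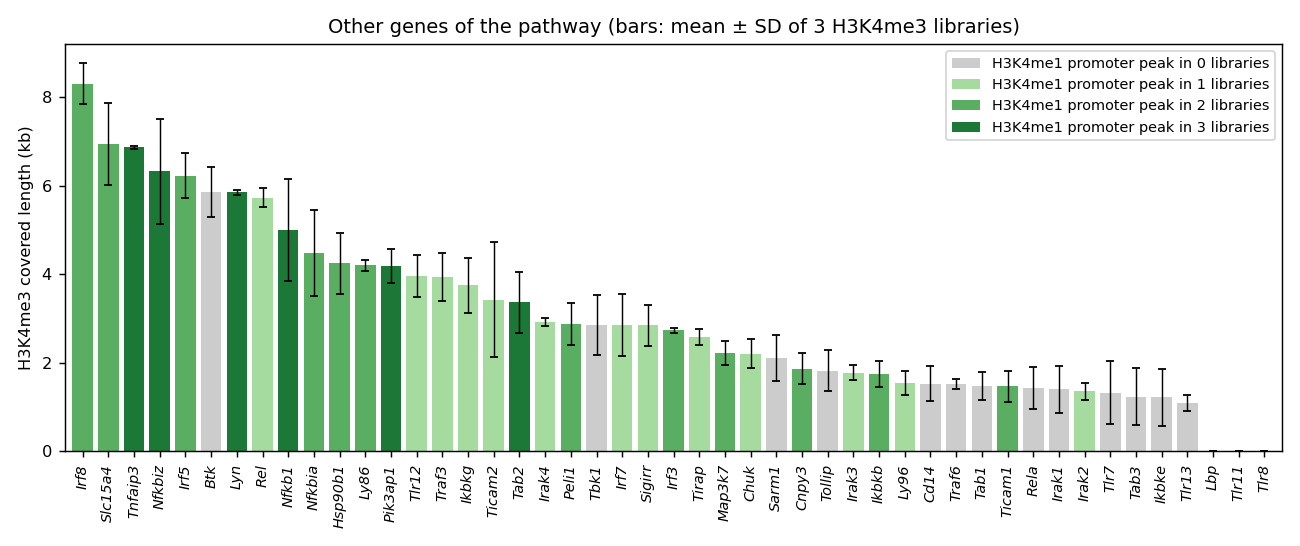
Mean H3K4me3 cover of the promoter window (kb, error bars are SD, n = 3 libraries) for the 47 other pathway genes, coloured by the number of libraries with a promoter-proximal H3K4me1 peak. Irf8 is the highest at 8.30 kb, and Lbp, Tlr11 and Tlr8 are at 0.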

How the data were processed

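Mint-ChIP peak lists of 3 H3K4me1 and 3 H3K4me3 libraries were used, 1 per library. The submitters' processing notes name BWA, Picard, HOMER, Genrich and mm10. The peak caller's settings and control are not given in the sources used here, and the layout is that of MACS2. The fold enrichment deposited by the authors is a linear ratio over local background. The deposited −log10 p-values and −log10 q-values belong to the same comparison, and in broad lists all of these are averages over a peak. The deposited summit positions were used, and the deposited score column was not. Total reads were not used here.

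Genes and TSSs came from the GENCODE M21 basic annotation. Coordinates were read as GRCm38: 0 peaks lay past a chromosome end, and 11 lay on chromosomes other than 1 to 19, X and Y. Promoter-proximal took precedence over body and body over distal, and 1 bp of overlap sufficed. Marks were compared over 6 libraries with a two-sided exact permutation test over 20 assignments. Replicate numbers are shared between marks. Correlations of same-numbered deviations were 0.171, 0.0652 and 0.0381, and those of other pairs ran from −0.128 to 0.0987. Whether same-numbered libraries share cells or animals cannot be told from these values or the labels. Pairing by number was therefore used only as an alternative.

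The genes, the pathway list and the markers were chosen with earlier results of these data known, so counts are set beside shares of all genes and carry no test. All 10 genes are named. Of the pathway list, genes without H3K4me3 at the promoter in any or in some libraries, genes with H3K4me1 there in every library, and the 3 with the most H3K4me3 cover are named. Alternatives were the q threshold, the number of peaks, promoter and distal distances, peak centres, merging, all transcripts, neighbouring genes and each library left out. A further 2 were added after the data had been seen: a common q threshold of 1.32 (−log10), and no promoter peaks over other TSSs. Fragments at H3K4me1 summits were solved from fold and p-value. Python 3.11.15, numpy 2.4.6, scipy 1.17.1, pandas 2.3.3, pysam 0.24.0 and samtools 1.23.1 were used, and code was tested on simulated peaks.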

Additional observations from a re-analysis of the deposited data

How the results depend on the processing

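Of 177 recomputed counts and differences, 161 stayed on their side (counts within 1.5 times of the reported value), 15 moved and 1 reversed. Some of those that stayed could not change. Leaving out a library of 1 mark cannot alter a count of the other mark, and the replicate block leaves the differences as they are. The reversed value was the distal peak difference, which was 2.67 with the 10000 best peaks per library. That setting also gave 5 genes with H3K4me3 and 3 with H3K4me1 at the promoter in every library, 0 with body H3K4me3, and 19 (H3K4me3) and 3 (H3K4me1) pathway genes. With a −log10 q of at least 5, H3K4me1 was found in every library at 2 promoters, 0 bodies and 1 distal window, H3K4me3 at 1 body, and the pathway list had 29 (H3K4me3) and 0 (H3K4me1). A promoter distance of 1 kb left 1 pathway gene with H3K4me1, and a distal limit of 20 kb left 1 gene with distal H3K4me1. Leaving out each library in turn gave 4 to 7 genes with distal H3K4me1 and 6 to 13 pathway genes with promoter H3K4me1, the highest without H3K4me1 replicate 2. The differences then ranged from −4 to −3 genes, from −35.9 to −34.6 kb and from −22 to −15 distal peaks. With the replicate block the differences were −3.33, −35.1 and −17.7, with an exact sign-flip p of 0.25, the smallest possible. H3K4me1 replicate 3 deviated most like H3K4me3 replicate 2, at a correlation of 0.0987. For single genes, 140 values of H3K4me3 cover include settings without an H3K4me1 library, which cannot change them. Of the 140 values, 25 moved by more than 1 SD of the 3 libraries. Among them were 8.02 kb at Tlr9 with peaks merged within 1 kb and 8.82 kb at Unc93b1 with all transcripts. Merging fills gaps between peaks and further transcripts can only widen a window, so neither setting can lower cover. How the other shifts arose was not tested. Low fragment numbers limit every statement on H3K4me1.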
